A study of Rattus norvegicus with 6 samples.

Results

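The nuclear-encoded subunits of oxidative phosphorylation were followed through single-nucleus RNA sequencing of the rat ileum, the last segment of the small intestine. Members were all genes whose symbols begin with Ndufa, Ndufb, Ndufc, Ndufs, Ndufv, Uqcr, Cox4, Cox5, Cox6, Cox7, Cox8 or Atp5, without pseudogene symbols (ending in -ps and digits, of which there were 0) and without the assembly factors whose symbols begin with Ndufaf. The rule gave 87 of 28282 gene symbols, which fall into 41 genes of complex I, 8 of complex III, 20 of complex IV and 18 of complex V. The rule uses symbols alone, so it also takes in Atp5if1, Cox7a2l and Cox7a2l2, which are not counted as subunits. It takes in the gene copies Ndufs6l1, Ndufa10l1 and Ndufb11b as well. All of these are included in the counts of the complexes. A UMI is a molecular tag that stands for 1 captured RNA molecule, and all 87 members had at least 1 UMI, 84 of them in at least 10 nuclei.

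Oxidative phosphorylation takes place in the inner mitochondrial membrane. Complex I takes electrons from NADH, complex III passes them from ubiquinol to cytochrome c, complex IV hands them to oxygen, and complex V uses the proton gradient that results to make ATP. Most subunits are encoded in the nucleus, made in the cytosol and imported, while a core of subunits of each of these complexes is encoded by mitochondrial DNA, so that the enzymes need the output of both genomes. The intestinal epithelium uses much ATP for nutrient and ion transport, and smooth muscle uses it for contraction.

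The samples were 6 ilea, each from a different male, wild-type Sprague-Dawley rat of 6 weeks and each giving 1 library. In the 3 SAP rats, severe acute pancreatitis followed a backward infusion of the bile salt sodium taurocholate at 3% into the pancreatic duct. The dose was 0.1 mL per 100 g of body weight, and the duct was clamped for 5 min. The 3 CON rats had a sham laparotomy without infusion, so effects of the bile salt and of the infusion itself cannot be told apart. All rats were fasted after surgery and killed at 24 h, so both groups carry anesthesia, surgery and fasting. Tissue was taken away from visible Peyer's patches. Of 90461 barcodes, 40970 passed the study's limits (at least 1200 UMIs and 500 genes, at most 5% mitochondrial UMIs), with 9246, 6260 and 8414 from CON and 3189, 5968 and 7893 from SAP rats, and 5549260 to 28771508 UMIs per library. CON replicate 2 and SAP replicate 1 stand apart: their tables start at 545 and 502 UMIs per barcode, against 1000 in the others, and 26.2% and 12.2% of their barcodes passed, against 76.4% to 79.9%. Pairs of libraries shared 701 to 7479 barcode names, which are index names and not shared nuclei. The libraries differed in composition. By the classes given below, epithelial nuclei made up 81.2%, 87.6% and 68.3% of passing nuclei in CON and 86.0%, 87.5% and 53.7% in SAP. B-like nuclei numbered 68, 41 and 268 in CON and 37, 22 and 840 in SAP. The part of composition in the values over all nuclei was not tested. Levels below are CPM, the UMIs of a gene or list per 1000000 UMIs of the passing nuclei of 1 library, as a whole or in 1 class of nuclei.

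Promoter sequence was available from RefSeq (build GRCr8) for 76 of the 87 members, as 300 bases, 250 before and 50 after the start. Shown here are the promoters of the 4 members whose CON and SAP levels did not overlap below (Ndufa10, Ndufa9, Uqcrc2 and Atp5mc1), of Cox5b, whose level differed most between the first 2 CON libraries, and of Atp5me, which holds the words of both nuclear respiratory factor 1 (NRF1) and YY1. Capitals mark matches, on either strand, to GCATGCGC (NRF1), CCGGAAGT (ETS factors, among them GABPA), AAGATGGC (YY1) and AAGGTCA (the core site of estrogen-related receptors, ERR). In Atp5me, the second run of capitals is 2 overlapping NRF1 matches, 1 on each strand.
Ndufa10: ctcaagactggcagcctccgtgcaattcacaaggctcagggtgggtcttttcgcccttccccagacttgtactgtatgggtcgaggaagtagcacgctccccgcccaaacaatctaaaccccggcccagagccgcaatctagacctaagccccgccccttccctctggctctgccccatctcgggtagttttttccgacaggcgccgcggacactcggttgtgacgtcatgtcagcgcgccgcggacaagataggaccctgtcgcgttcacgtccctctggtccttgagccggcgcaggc
Uqcrc2: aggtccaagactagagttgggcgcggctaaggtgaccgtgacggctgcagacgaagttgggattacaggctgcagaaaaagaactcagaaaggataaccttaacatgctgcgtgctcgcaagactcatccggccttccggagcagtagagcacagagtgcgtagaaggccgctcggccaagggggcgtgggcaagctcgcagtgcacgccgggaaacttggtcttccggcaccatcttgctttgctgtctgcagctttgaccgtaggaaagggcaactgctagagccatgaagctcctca
Atp5mc1: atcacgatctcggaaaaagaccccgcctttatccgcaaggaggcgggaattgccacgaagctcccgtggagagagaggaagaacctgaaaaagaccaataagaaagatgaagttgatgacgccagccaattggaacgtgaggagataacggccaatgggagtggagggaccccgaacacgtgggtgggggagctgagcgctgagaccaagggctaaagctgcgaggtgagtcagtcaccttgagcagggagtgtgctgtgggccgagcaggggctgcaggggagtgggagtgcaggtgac
Ndufa9: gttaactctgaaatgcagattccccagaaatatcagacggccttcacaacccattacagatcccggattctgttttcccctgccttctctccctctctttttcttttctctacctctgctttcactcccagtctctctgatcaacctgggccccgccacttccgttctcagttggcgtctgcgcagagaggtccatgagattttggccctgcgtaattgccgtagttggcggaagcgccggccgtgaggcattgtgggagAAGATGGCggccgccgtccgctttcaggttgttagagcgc
Cox5b: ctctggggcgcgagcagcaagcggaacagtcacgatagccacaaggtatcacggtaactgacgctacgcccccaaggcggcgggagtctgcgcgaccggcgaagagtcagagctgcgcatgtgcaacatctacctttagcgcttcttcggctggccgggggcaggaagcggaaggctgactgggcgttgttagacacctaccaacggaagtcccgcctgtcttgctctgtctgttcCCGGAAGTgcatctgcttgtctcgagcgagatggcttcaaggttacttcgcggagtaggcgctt
Atp5me: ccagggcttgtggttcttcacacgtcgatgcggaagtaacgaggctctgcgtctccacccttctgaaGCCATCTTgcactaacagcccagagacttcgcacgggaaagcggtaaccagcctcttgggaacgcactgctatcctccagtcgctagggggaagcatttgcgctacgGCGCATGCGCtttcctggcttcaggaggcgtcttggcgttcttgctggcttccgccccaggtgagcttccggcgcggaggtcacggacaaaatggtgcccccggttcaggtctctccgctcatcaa
These windows lie at chr9:100489215-100489514 (minus strand, Ndufa10), chr1:184598990-184599289 (plus strand, Uqcrc2), chr10:81523296-81523595 (minus strand, Atp5mc1), chr4:161374121-161374420 (minus strand, Ndufa9), chr9:46417587-46417886 (plus strand, Cox5b) and chr14:1464610-1464909 (plus strand, Atp5me).

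The YY1 word was present in 15 of 76 member promoters (19.7%) and in 3.17% of all 33469 promoters of that length, the ERR site in 11 (14.5%) against 4.61%, the ETS word in 8 (10.5%) against 3.81% and the NRF1 word in 7 (9.21%) against 2.47%. These 4 words belong to factors known to act on nuclear genes for mitochondrial proteins. At least 1 of the NRF1, ETS and YY1 words stood in 25 member promoters, against 8.84% of all promoters, and 45 members held none of the 4 words, Ndufa10, Uqcrc2 and Atp5mc1 among them. By complex, the NRF1 word stood in 4 of 17 complex V promoters and in 0 of 17 of complex IV. The other words searched gave smaller contrasts, GGGCGG (SP1) at 40.8% against 33.1% and CCAAT (NFY) at 34.2% against 37.5%. Members were also richer in G and C, with a median of 56% against 51.67% of bases, and a match of letters does not show binding. The set of all promoters was not limited to genes found in these nuclei, nor to 1 promoter per symbol as the members were.

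Members made up 0.383% to 0.704% of all UMIs, 37503 to 202549 UMIs per library. The summed level of all members was 7039.9, 3827 and 4385 CPM in CON (mean 5084 ± 1717, SD, n = 3) and 6758, 4436 and 5533 CPM in SAP (5576 ± 1162, SD, n = 3). The groups overlapped, and in each group replicate 1 was highest and replicate 2 lowest. Complex I, where electrons enter from NADH, summed to 2146, 1512 and 1475 CPM in CON and 1924, 1371 and 1732 CPM in SAP. Complex III summed to 793, 516 and 504 CPM in CON and 780.5, 496 and 665 CPM in SAP. The groups overlapped in both of these complexes. Complex IV summed to 1758, 699 and 927 CPM in CON and 1795, 1035 and 1229 CPM in SAP, and complex V to 2343, 1101 and 1479 CPM in CON and 2259, 1533 and 1908 CPM in SAP. In these 2 complexes as well replicate 1 of each group was the highest library.

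**Figure D1:**
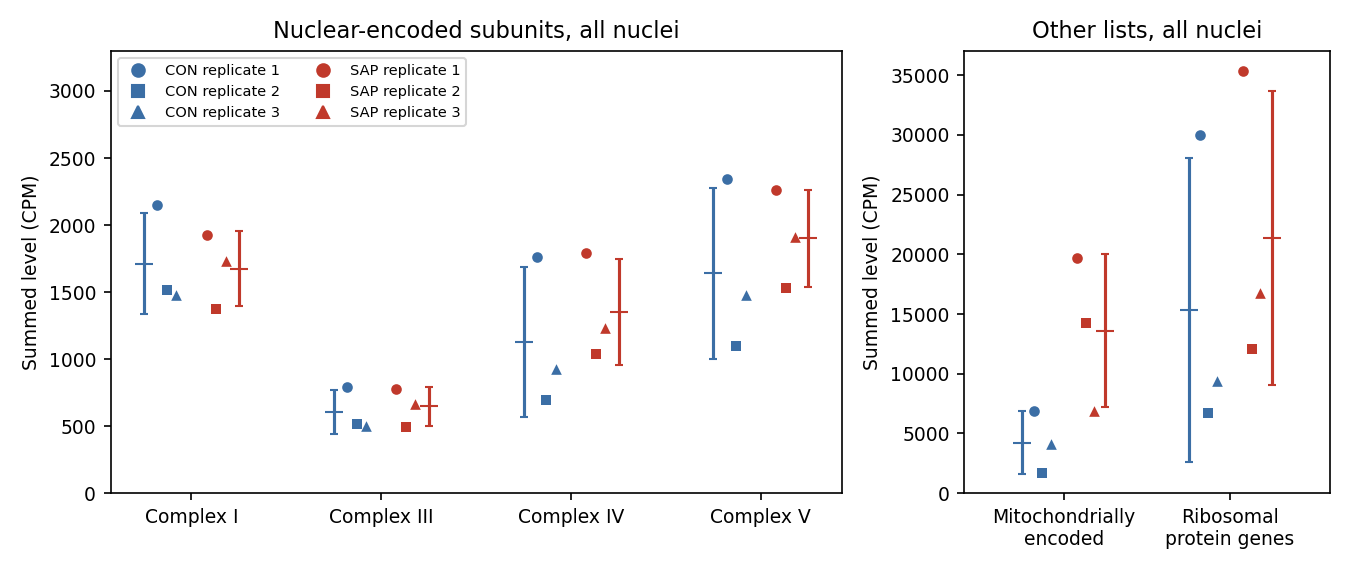
Summed level in CPM (y axis) of the members of each complex (left) and of the mitochondrially encoded subunits and cytosolic ribosomal protein genes (right) in all nuclei; points are libraries, blue CON and red SAP, and horizontal ticks with bars are the mean and SD of 3 libraries. CON replicate 1 and SAP replicate 1 are the highest of their group in every panel, complex V reaching 2343 and 2259 CPM, and the mitochondrially encoded sums of the groups barely overlap, with 6912 CPM in the lowest SAP library and 6917 CPM in the highest CON library.

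Differences between libraries of 1 group were large. Of 78 members with at least 20 UMIs in every library, 68 were higher in CON replicate 1 than in CON replicate 2, with a median log2 ratio of 1.02, and 69 were higher in SAP replicate 1 than in SAP replicate 2, with a median of 0.71. Spearman's rho between the 2 sets of ratios over these 78 genes was 0.68, given as a description, since genes of 1 library share its depth and preparation. The log2 ratio between the CON libraries was highest for Cox5b, at 2.55 (1.29 between the SAP libraries). Cox5b encodes a nuclear subunit of cytochrome c oxidase, and its level was 235 CPM in CON replicate 1 and 40.3 CPM in CON replicate 2. A few members ran the other way between the CON libraries: Ndufs4 (-0.78), Ndufa10 (-0.63), Uqcrc2 (-0.54) and Ndufs1 (-0.49) were higher in CON replicate 2.

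Other RNAs moved with this split. Cytosolic ribosomal protein genes, 103 genes, summed to 29977, 6692 and 9420 CPM in CON and 35358, 12049 and 16758 CPM in SAP. The 7 Paneth cell markers, which include defensin genes, summed to 30090 CPM in the T-like nuclei of CON replicate 1 and 49708 CPM in those of SAP replicate 1. They summed to 2160 and 2908 CPM in the other CON libraries and 1901 and 1881 CPM in the other SAP libraries. Of the 7 markers 0 were at 0 in T-like nuclei, and T cells are not known to make Paneth cell defensins. The part of such RNA from outside the nucleus in the member levels was not tested. Per 1000 ribosomal protein UMIs there were 235, 572 and 466 member UMIs in CON and 191, 368 and 330.2 in SAP, so on that scale replicate 1 was the lowest of each group.

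**Figure D2:**
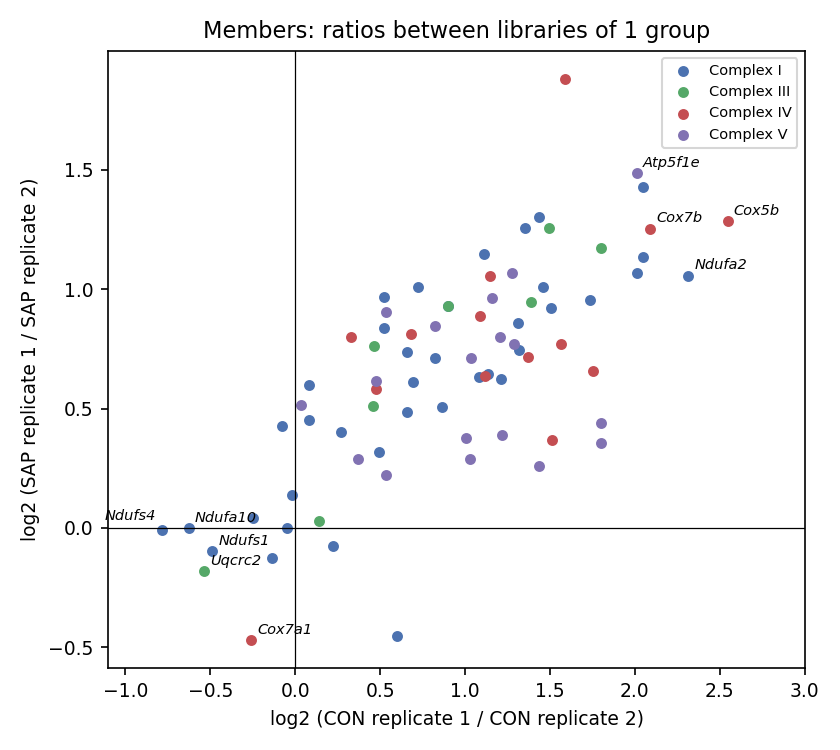
Each point is 1 of 78 members, with the log2 ratio of CON replicate 1 to CON replicate 2 on the x axis and of SAP replicate 1 to SAP replicate 2 on the y axis, colored by complex. Most points lie above 0 on both axes, Cox5b lies farthest to the right at 2.55 and 1.29, and Ndufs4, Ndufa10, Uqcrc2 and Ndufs1 lie left of 0.

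The comparison of SAP with CON asked whether pancreatitis shifted these genes in the ileum. It called 0 of 81 tested members in all nuclei and 0 of 78 in the 30934 epithelial nuclei, where a call was an adjusted p under 0.05 and a log2 fold change of at least 0.5 in either direction by edgeR's quasi-likelihood test on UMIs summed per library. The share called of all genes tested was 0% of 19187 in all nuclei and 0% of 16931 in epithelial nuclei. At an unadjusted p under 0.05, 1 member stood in each fit, against 1618 and 1925 genes, and DESeq2 called 0 members (196 and 286 genes). In all nuclei 46 of 81 members were on the higher side in SAP, and their median log2 fold change was 0.03 against 0.02 over all genes. In epithelial nuclei 30 of 78 were, with a median of -0.06 against -0.0021 over all genes. Without CON replicate 1 the medians were 0.68 in both, and without CON replicate 2 and SAP replicate 1, an alternative chosen after seeing the data, they were -0.41 and -0.59, so these medians turn on which libraries are used.

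By complex, the median log2 fold change in all nuclei was -0.06 for complex I (17 of 38 tested on the higher side), 0.04 for complex III (5 of 8), 0.17 for complex IV (12 of 17) and 0.09 for complex V (12 of 18). In epithelial nuclei it was -0.13 (11 of 38), -0.09 (3 of 8), 0.07 (8 of 14) and -0.01 (8 of 18). Complex I was thus the lowest of the 4 in both fits, and these differences between complexes were not tested. The 3 complex I members with the highest levels were Ndufs4, Ndufc1 and Ndufa13. Ndufs4, an accessory subunit needed for complex I assembly, stood at 77.7, 134 and 103 CPM in CON and 77.8, 78.3 and 103 CPM in SAP. In complex III, Uqcrh, the hinge protein that contacts cytochrome c1, stood at 135, 98.7 and 103 CPM in CON and 164, 115 and 132 CPM in SAP. In complex IV, Cox4i1, a subunit with a regulatory role, stood at 345, 102 and 143 CPM in CON and 404, 256 and 198 CPM in SAP. In complex V, Atp5f1b, the catalytic beta subunit, stood at 398, 147 and 205 CPM in CON and 347, 290.0 and 254 CPM in SAP. Each of these 4 genes overlapped between the groups. Of the other leading members, Ndufc1, Ndufa13, Uqcr11, Cox7c, Cox6c and Atp5me overlapped as well, with log2 fold changes between -0.24 for Uqcr11 and 0.20 for Cox7c. The remaining leading members, Uqcrc2 and Atp5mc1, did not overlap and are given below.

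**Figure D3:**
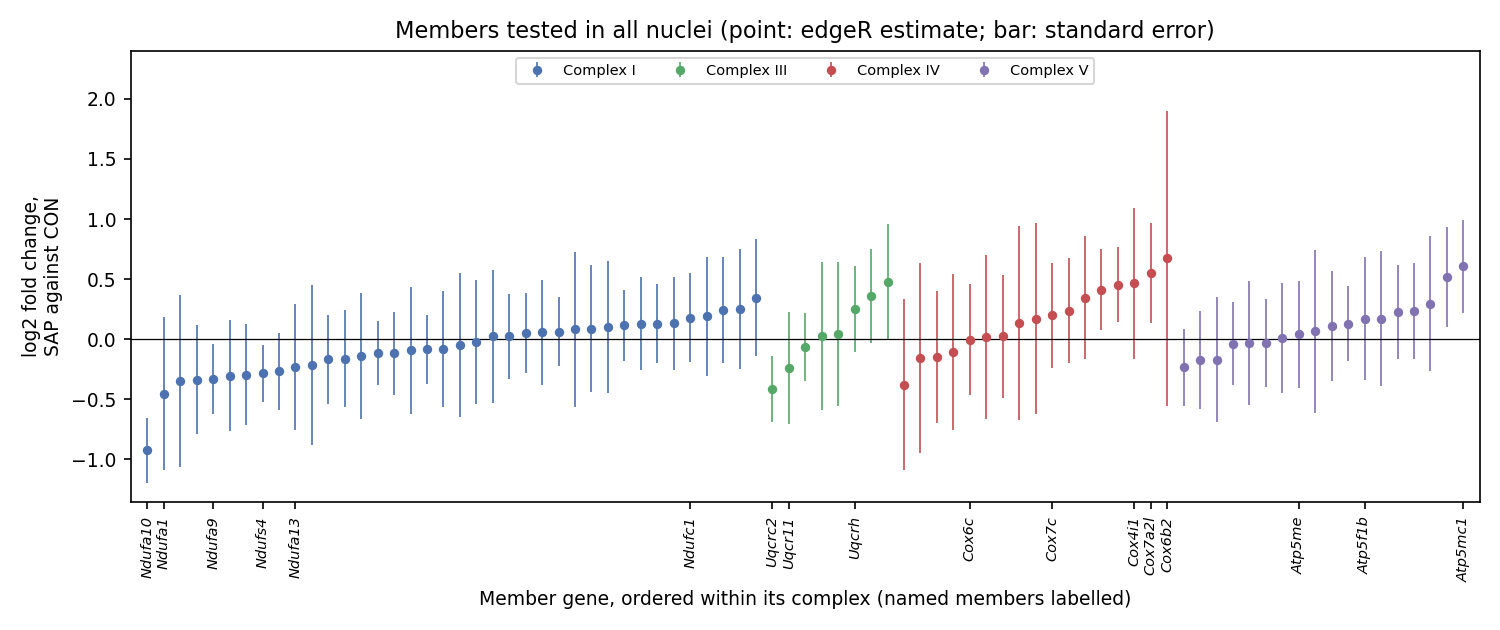
The log2 fold change of SAP against CON in all nuclei (y axis) is plotted for the 81 tested members, ordered within their complex (x axis); points are edgeR estimates and bars their standard errors, from 3 libraries per group, and the members named by rule are labelled. Estimates run from -0.92 for Ndufa10 to 0.67 for Cox6b2, and most bars cross 0. The Cox6b2 estimate (SE 1.23) rests on 97 UMIs. Its level was 2.88 CPM in SAP replicate 3 and 1.06 CPM in CON replicate 3, the next highest library.

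In all nuclei, 3 members had every SAP library below every CON library (Ndufa10, Ndufa9 and Uqcrc2) and 1 had every SAP library above (Atp5mc1). The same 4 did so in epithelial nuclei. Over all genes, 4.84% did not overlap on the lower side and 4.53% on the higher side in all nuclei, and 5% and 5.48% in epithelial nuclei, and the members' 3 of 81 and 1 of 81, or 3 of 78 and 1 of 78, are below these shares. Ndufa10, an accessory subunit of complex I, stood at 88.1, 136 and 86.9 CPM in CON (mean 104 ± 28.1, SD, n = 3) and 47.8, 47.8 and 75.1 CPM in SAP (56.9 ± 15.8, SD, n = 3). Its log2 fold change was -0.92 ± 0.27 (SE) in all nuclei, with an edgeR adjusted p of 0.545, and -0.91 ± 0.24 in epithelial nuclei, with an edgeR adjusted p of 0.387 (0.176 and 0.0999 by DESeq2). It was the member with the smallest p in both fits, and it did not pass in either. The value ranged from -1.14 to -0.76 in all nuclei when each library was left out in turn. Ndufa10l1, a related gene that could share reads, had 0 to 12 UMIs per library, and GRCr8 lists Spcs3-ps1 as overlapping Ndufa10.

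Uqcrc2, a core protein of complex III, stood at 90.6, 132 and 91.1 CPM in CON and 72.3, 81.9 and 82.6 CPM in SAP. Its log2 fold change was -0.42 ± 0.28 (SE; edgeR adjusted p = 0.745). Ndufa9, an accessory subunit of complex I, stood at 54.99, 56.9 and 47.7 CPM in CON and 42.2, 42.2 and 45.4 CPM in SAP. Its log2 fold change was -0.33 ± 0.29 (SE; edgeR adjusted p = 0.827). Both separated the groups by a margin of a few CPM. Atp5mc1, 1 of the genes for the c subunit of the membrane rotor of ATP synthase, stood at 153, 75.1 and 141 CPM in CON and 215, 176 and 180.4 CPM in SAP. Its log2 fold change was 0.61 ± 0.39 (SE; edgeR adjusted p = 0.736), and in epithelial nuclei 0.54 ± 0.41 (edgeR adjusted p = 0.635). The epithelial value was -0.0018 without CON replicate 2 and SAP replicate 1. Cox7a2l, which takes part in joining complexes III and IV into supercomplexes, stood at 58.4, 46.5 and 51.3 CPM in CON and 107, 61.6 and 56.8 CPM in SAP. Ndufa1, a small complex I subunit, stood at 65.1, 16.1 and 25.4 CPM in CON and 37.1, 17.7 and 32.6 CPM in SAP. In Cox7a2l and Ndufa1 the value turns on which libraries are used. The log2 fold change of Cox7a2l in epithelial nuclei, 0.49, became -0.16 without CON replicate 2 and SAP replicate 1. It stayed between 0.05 and 0.86 with each library left out in turn. That of Ndufa1, -0.59, became 0.68 without CON replicate 1.

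Nuclei were grouped into 24 clusters, of which 16 classes or unnamed clusters had at least 10 nuclei in every library and were compared. Class names come from marker genes and are given as X-like. SMC-like (smooth muscle) nuclei had the highest member level of the 16 in 6 of 6 libraries. Their summed member level was 11350, 5515 and 6551 CPM in CON and 10243, 7458 and 10146 CPM in SAP, 1.44 to 1.83 times the level of all nuclei of the same library. Of 81 members, 59 were above the all-nuclei level in every library, against 12.4% of all genes. In these nuclei the 8 smooth muscle markers summed to 2239 to 16052 CPM, the 12 enterocyte markers to 560 to 2563 CPM and the 7 Paneth cell markers to 4490 to 44400 CPM, above the smooth muscle markers in 4 of 6 libraries. The cluster scored 5.23 for smooth muscle markers, 3.09 for fibroblast markers and 2.96 for pericyte markers. Kcnj8, 1 of the pericyte markers, was among its leading genes. SMC-like nuclei were also rich in ribosomal protein UMIs. Per ribosomal protein UMI their member level was above that of all nuclei in 1 of 6 libraries, and it was 0.37 to 0.77 times that of enterocyte-like nuclei, against 1.15 to 2.15 times in CPM, so the order of these classes depends on the scale.

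Within the enterocyte-like class, the clusters differed in CPM. Cluster 14, with 722 nuclei led by Fabp6 (the ileal bile acid binding protein), C3 and Reg3g, had a summed member level of 15515, 4617 and 13683 CPM in CON and 10411, 7851 and 13579 CPM in SAP, 1.21 to 3.12 times all nuclei, and 38 of 81 members were above in every library, against 3.23% of all genes. Cluster 5, also enterocyte-like and led by Ly6m, Apoa4 and Samd9, was below all nuclei in every library, with 46 of 81 members below in each, against 37.1% of all genes. Cluster 12, a goblet-like cluster led by Sptssb and Cdc42ep3, had 42 of 81 members below in each, against 24.3%. The defensin-rich cluster 9, Paneth-like, stood at 0.948 to 2.23 times all nuclei. The other Paneth-like cluster, cluster 7, had 1458 nuclei led by Gfra4 and Kif19 and stood at 0.641 to 0.959 times. Its markers scored highest for Paneth cells (1.90) and next for stem cells (0.649). Cluster 9 was above cluster 7 in 6 of 6 libraries in CPM (1.47 to 3.13 times) and in 0 per ribosomal protein UMI. T-like (0.702 to 0.986 times), macrophage-like (0.714 to 0.972) and tuft-like nuclei (0.787 to 0.999) were below all nuclei in 6 of 6 libraries. These orders are in CPM, and not all of them hold per ribosomal protein UMI. On that scale cluster 14 stayed above all nuclei in 6 of 6 libraries (1.11 to 3.51 times). It was above cluster 4 in 2 of 6 libraries (0.609 to 1.59 times), against 6 of 6 in CPM (1.36 to 3.25 times). Per ribosomal protein UMI, clusters 5 and 12 were above all nuclei in 6 of 6 libraries, tuft-like nuclei in 5, T-like nuclei in 4, macrophage-like nuclei in 1 and clusters 7 and 9 in 0.

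**Figure D4:**
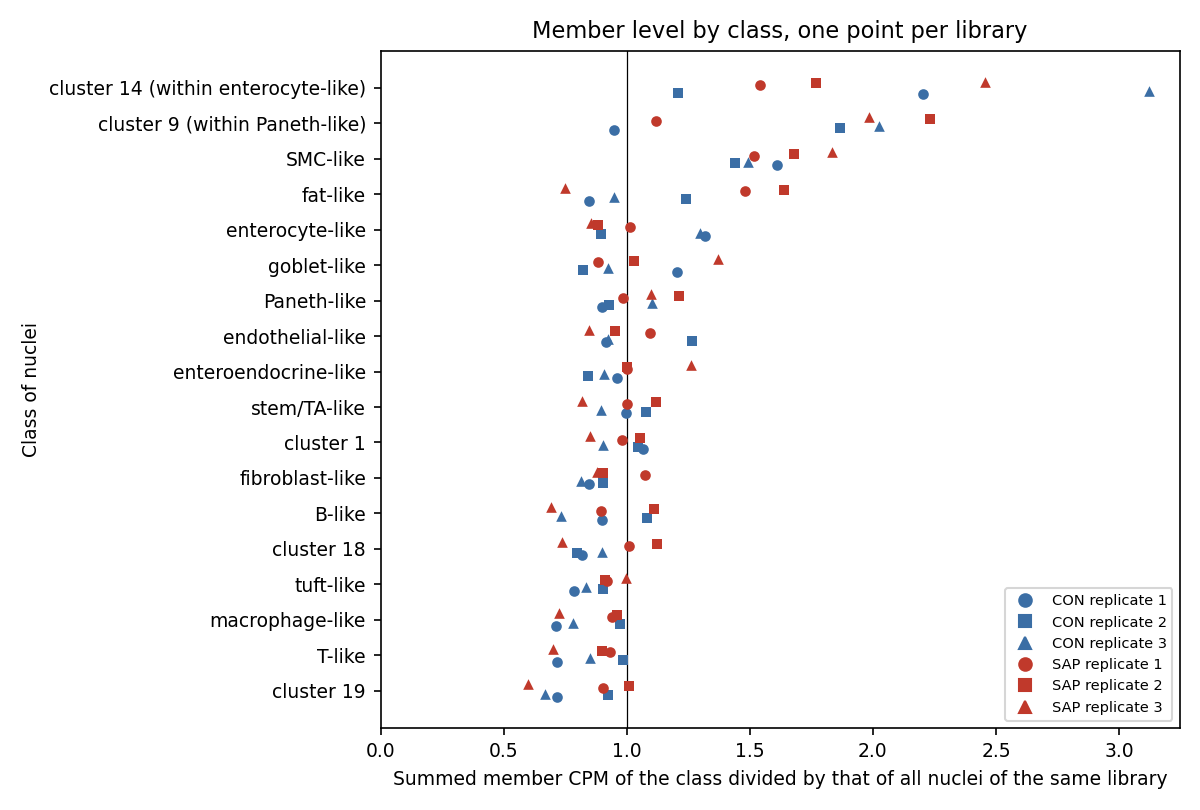
Summed member CPM of each class divided by that of all nuclei of the same library (x axis) for the 16 classes compared and for clusters 14 and 9 (y axis); each point is 1 library. SMC-like points lie at 1.44 to 1.83, cluster 14 spreads from 1.21 to 3.12, and T-like points lie between 0.702 and 0.986.

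Several complex IV subunits have tissue-restricted paralogues. Cox6a2, the heart and skeletal muscle form of Cox6a, had 61 UMIs in all nuclei, 36 of them in SMC-like nuclei, where it was found in 6 of 6 libraries and made up 3.96% of the Cox6a1 and Cox6a2 UMIs, against 0.203% in epithelial nuclei (16 UMIs). In enterocyte-like nuclei Cox6a2 had 0 UMIs, which allows up to 0.230 CPM (3 UMIs, counting error only). Cox4i2, the form known from lung and hypoxia, had 39 UMIs and a share of 2.23% of the pair in SMC-like nuclei and 31 UMIs and 0.167% in epithelial nuclei. Cox6b2, known from testis, had 19 UMIs in fibroblast-like nuclei, 13.4% of its pair, in 3 of 6 libraries, and 17 UMIs, 0.409% of its pair, in epithelial nuclei. In small classes the shares were higher but rest on few UMIs, as for Cox6b2 in NAC-like (neuron-associated) nuclei, with 8 UMIs and 30.8% of its pair, and Cox4i2 there, with 5 UMIs and 10.2%. Cox8b had 7 UMIs, Ndufa4l2 46, and Cox8c was not among the symbols. These counts are small, and differences in share were not tested. The part of pericytes and fibroblasts in the SMC-like counts was not tested either.

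Cox7a1, known as the muscle form of Cox7a, was not rare in the epithelium. In enterocyte-like nuclei Cox7a1 stood at 80.8, 50.8 and 82.1 CPM in CON and 62.5, 65.9 and 58.7 CPM in SAP, and in stem/TA-like nuclei at 26.4, 34.4 and 26.2 CPM in CON and 34.8, 57.7 and 28.5 CPM in SAP. It was higher in enterocyte-like nuclei in 6 of 6 libraries. With all libraries pooled, Cox7a1 made up 51.2% of the Cox7a1 and Cox7a2 UMIs there, against 34.0% in stem/TA-like, 32.0% in SMC-like and 17.2% in Paneth-like nuclei. The ranges of this share over the libraries overlapped between these classes, but they set different libraries side by side. The shares of the classes were not compared within each library. The lowest enterocyte-like share was 39.0%, while single libraries reached 55.3% (stem/TA-like), 49.0% (SMC-like) and 50% (Paneth-like). Over all nuclei the share ran from 26.2% to 58.9% between libraries, and the part of library mix in the pooled class shares was not tested. The pooled share was not particular to enterocyte-like nuclei: it was 50.6% in T-like, 52.2% in B-like and 48.2% in tuft-like nuclei, and 39.6% over epithelial against 45.3% over other nuclei. Cox7a1 overlaps Rps24-ps2 and Capns1 in GRCr8, so reads may be shared among them. Ndufa4, a subunit now placed in complex IV, stood at 242, 75.1 and 64.1 CPM in CON and 137, 127 and 122 CPM in SAP in SMC-like nuclei, above the all-nuclei level (18.5 to 68.4 CPM) of the same library in 6 of 6.

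Fits within the 16 classes called 0 of 925 member values, with 0.0252% of all gene values called (32 of 126736). At an unadjusted p under 0.05 stood 25 member values (2.7%), against 7.78% of all values, and DESeq2 called 0 member values. The member median was above 0 in 12 of 16 classes, of which the fat-like class had 1 member tested and cluster 19 had 4. With the replicate number as a block it was above 0 in 15 of 16, as the Paneth-like median went from -0.15 to 0.085, the B-like from -0.04 to 0.11 and the endothelial-like from -0.13 to 0.02. Over all genes, the class medians without the block ran from -0.04 (Paneth-like) to 0.03 (T-like). All classes come from the same 6 libraries, so they are not independent. In enterocyte-like nuclei, named by markers of absorptive cells, 11 of 78 members were on the higher side, against 49.2% of all genes. Their median log2 fold change was -0.28, against -0.01 over all genes. The summed level was 9283, 3421 and 5698 CPM in CON and 6844, 3925 and 4719 CPM in SAP, which overlap. The median was 0.35 without CON replicate 1 and -0.68 without CON replicate 2. The unnamed cluster 1, with 6817 nuclei, was closest in expression to the enterocyte-like class but did not show this direction. It had 41 of 77 members on the higher side and a median of 0.01 (-0.26 to 0.63 with each library left out in turn). Of the clusters of the enterocyte-like class, cluster 4 held 1033 CON and 1314 SAP nuclei and cluster 5, with the lower member level in CPM, 665 CON and 1306 SAP nuclei. Cluster 14, with the highest, held 360 CON and 362 SAP nuclei, from 208 in CON replicate 1 to 55 in SAP replicate 3. Their part in the class median was not tested.

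In other classes more members were on the higher side: 53 of 70 in tuft-like nuclei (median 0.40, 0.13 to 0.64 with each library left out in turn), 49 of 65 in enteroendocrine-like nuclei (0.27, 0.03 to 0.75), 52 of 77 in SMC-like nuclei (0.20, -0.05 to 0.70), 50 of 77 in stem/TA-like nuclei (0.14, -0.18 to 0.58) and 50 of 78 in goblet-like nuclei (0.11, -0.14 to 0.90). Over all genes, 51.7%, 48.5%, 48.8%, 51.7% and 49.9% were on the higher side in these classes, with medians between -0.02 and 0.02. In Paneth-like nuclei 19 of 75 members were on the higher side, against 45.5% of all genes. Their median was -0.15 (-0.46 to 0.73), against -0.04 over all genes. In that class the defensin-rich cluster 9 held 597 nuclei of CON replicate 1 and 46 to 133 of each other library. Cluster 7, with the lower member level in CPM, held 1101 CON and 357 SAP nuclei of that class, against 775 and 231 in cluster 9. Paneth-like values thus mix both clusters, and the part of this mix was not tested. Where the range crosses 0, 1 library decides the direction. The upper end of each of these ranges is the value without CON replicate 1. The difference between classes itself was tested by an interaction of SAP and class with the rat as a block, chosen after seeing the data. It called 0 of 80 members for SMC-like against enterocyte-like nuclei, 0 of 78 for stem/TA-like and 0 of 77 for tuft-like, with lowest edgeR adjusted p values of 0.547, 0.893 and 0.508, and 0 genes of any kind. At an unadjusted p under 0.05 stood 16, 1 and 32 members, where 6.80%, 5.56% and 5.30% of all genes did. The SAP difference was more positive than in enterocyte-like nuclei for 73, 74 and 74 members, with median differences of 0.48, 0.36 and 0.78 against -0.03, 0.05 and 0.10 over all genes. These comparisons share the same enterocyte-like nuclei, so they are not separate evidence, and cluster 1 was not part of them. The enterocyte-like median itself ran from -0.68 to 0.35 with each library left out in turn, and the interaction was not refitted in that way. Cox7b, a small complex IV subunit, had the smallest p for tuft-like nuclei, with a difference of 1.94 ± 0.48 on the log2 scale (SE; edgeR adjusted p = 0.508).

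Ndufa10 was on the lower side in 14 of 14 classes in which it was tested, and its groups did not overlap in 7 of them: SMC-like, cluster 1, endothelial-like, enterocyte-like, enteroendocrine-like, goblet-like and stem/TA-like. In stem/TA-like nuclei Ndufa10 stood at 130.2, 168 and 137 CPM in CON and 58.6, 66.9 and 112 CPM in SAP, with a log2 fold change of -0.85 ± 0.23 (SE; edgeR adjusted p = 0.533). In SMC-like nuclei Ndufa10 stood at 105, 118 and 75.3 CPM in CON and 39.1, 48.5 and 58.5 CPM in SAP, with a log2 fold change of -0.94 ± 0.30 (edgeR adjusted p = 0.228). In enterocyte-like nuclei Ndufa10 was lower than in stem/TA-like nuclei in every library, at 47.6, 108 and 34.0 CPM in CON and 25.7, 30.8 and 30.6 CPM in SAP. Nuclei of 1 library share its preparation, so the classes are not independent replicates of this pattern. Ndufa10 was also named for its small p in the sum of these same nuclei. Other members had 1 direction throughout: Atp5f1c was on the lower side in 14 of 14 classes and Ndufa11 in 7 of 7. Atp5mc2 was on the higher side in 14 of 14 and Cox7a2l in 13 of 13. No share of all genes with 1 direction throughout stands beside these counts, so they are not read as a trait of the members.

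Atp5mc1 was on the higher side in 13 of 14 classes and did not overlap in 7. In goblet-like nuclei Atp5mc1 stood at 163, 61.1 and 141 CPM in CON and 246, 178 and 277 CPM in SAP, with a log2 fold change of 0.94 ± 0.38 (SE; edgeR adjusted p = 0.63). The exception was the enterocyte-like class, where Atp5mc1 stood at 350.4, 96.3 and 294 CPM in CON and 231, 159 and 202 CPM in SAP, with a log2 fold change of -0.40 ± 0.55 (edgeR adjusted p = 0.884). The difference between tuft-like and enterocyte-like nuclei was 1.30 ± 0.35 for Atp5mc1 (SE; edgeR adjusted p = 0.602). Uqcrc2 did not overlap on the lower side in 5 classes and Ndufa9 in 2. Atp5mc1, Uqcrc2 and Ndufa9 were also named from sums of these same nuclei, and the classes are not independent replicates. No share over all genes stands beside these counts of classes.

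**Figure D5:**
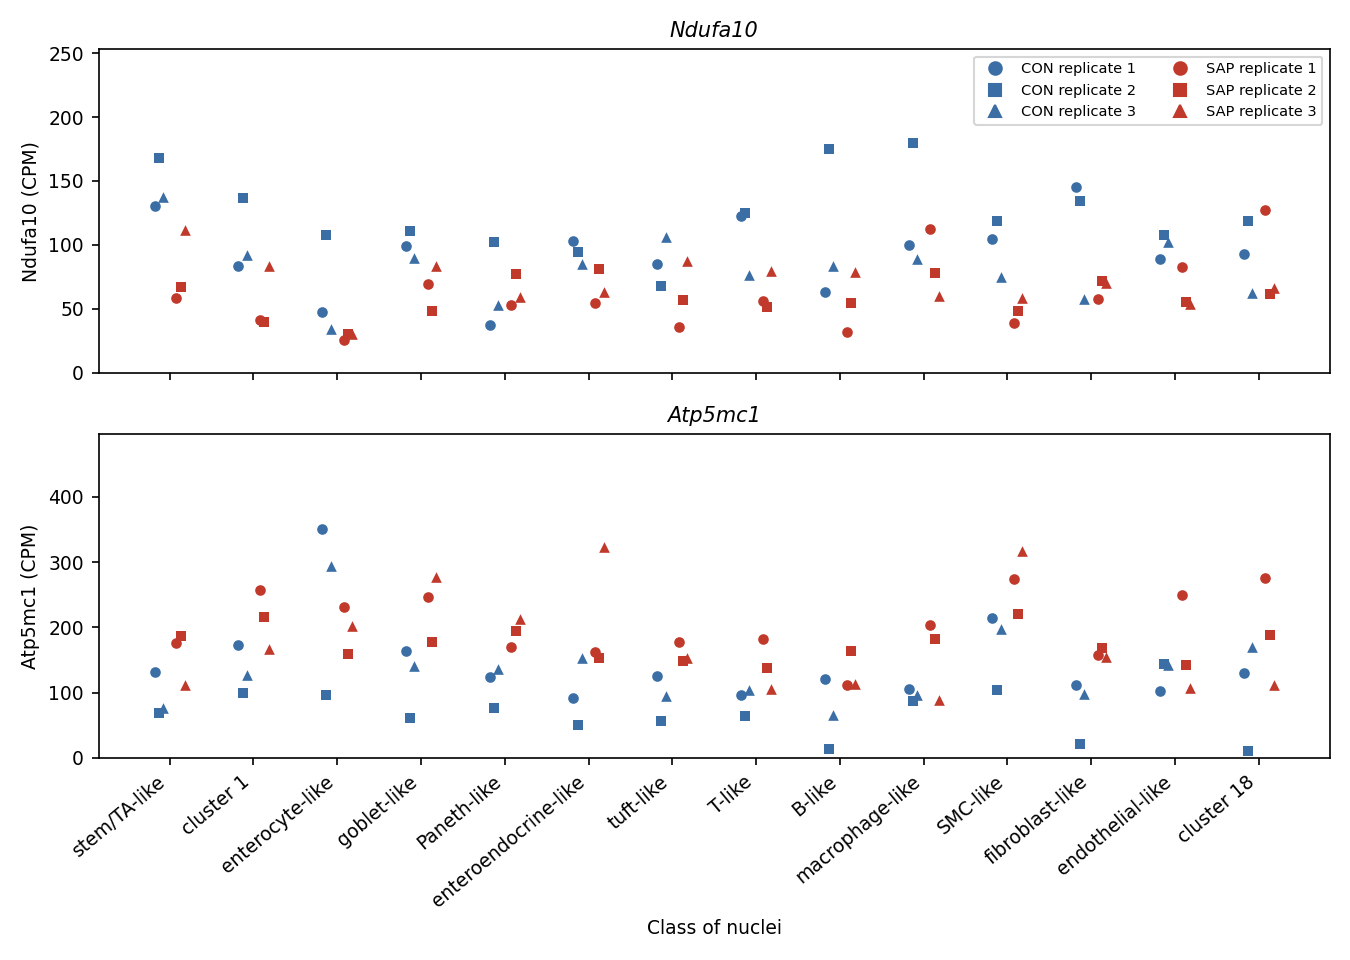
CPM of Ndufa10 (top, y axis) and Atp5mc1 (bottom, y axis) in each of 14 classes of nuclei (x axis), with 1 point per library, blue CON and red SAP. In stem/TA-like nuclei Ndufa10 lies at 130.2 to 168 CPM in CON and 58.6 to 112 CPM in SAP, and Atp5mc1 lies higher in SAP in most classes but at 96.3 to 350.4 CPM in CON and 159 to 231 CPM in SAP in enterocyte-like nuclei.

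Members whose groups did not overlap were 6 higher and 2 lower in SMC-like nuclei (8.06% and 10.4% of all genes), 0 and 2 in enterocyte-like (3.33% and 5.31%), 2 and 4 in stem/TA-like (5.36% and 6.79%), 1 and 1 in goblet-like (4.38% and 6.9%), 4 and 4 in tuft-like (4.96% and 10%), 7 and 1 in enteroendocrine-like (4.92% and 5.91%) and 6 and 0 in Paneth-like nuclei (5.3% and 0.945%). The 7 on the higher side in enteroendocrine-like nuclei, the hormone-secreting cells, were Atp5f1a, Atp5mc1, Cox7a2l, Ndufb10, Ndufv1, Ndufv3 and Uqcrc1. Those in SMC-like nuclei included Atp5mc1, Atp5mc3, Cox5a, Cox6b1 and Cox7a2l. The 2 on the lower side in enterocyte-like nuclei were Ndufa10 and Ndufab1, the mitochondrial acyl carrier protein. In none of these classes did edgeR call a member. Overlap was read from CPM, while fold changes came from edgeR with its own scaling of libraries (TMM), so the directions can differ. In Paneth-like nuclei 19 of 75 members were on the higher side by edgeR, though 6 were higher and 0 lower without overlap in CPM.

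The 13 subunits encoded by mitochondrial DNA were all on the higher side in SAP in all nuclei, with a median log2 fold change of 1.66 (1.21 to 2.51 with each library left out in turn), and 0 of 13 passed edgeR (lowest adjusted p = 0.557). COX1, the catalytic core of complex IV, stood at 1589, 390.0 and 1211 CPM in CON and 4744, 4278 and 1905 CPM in SAP. For each member UMI there were 0.983, 0.446 and 0.936 mitochondrially encoded UMIs in CON and 2.91, 3.21 and 1.25 in SAP, so the ratio of the 2 genomes' transcripts did not overlap between the groups. With nuclei limited to 1% mitochondrial UMIs the ratios were 0.769, 0.402 and 0.657 in CON and 1.47, 1.95 and 0.826 in SAP. This limit acts on the numerator of the ratio, so it is not an independent check of the difference. It left 6642, 6176 and 7924 nuclei in CON and 384, 1908 and 6825 in SAP. Mitochondria lie outside the nucleus, and the part of carried-over cytoplasm in these values was not tested. An exact permutation test of 3 against 3 libraries cannot go below p = 0.1, two-sided.

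Complex II, which feeds electrons from succinate and is nuclear-encoded in full, summed to 370.0, 546 and 418 CPM in CON and 412, 556 and 442 CPM in SAP, with 1 of 4 genes on the higher side. Of the 45 assembly factors listed, which build the complexes, 43 were in the tables, 7 of 43 were on the higher side, and the median log2 fold change was -0.31 (-0.46 to -0.06 with each library left out). Of 16 genes of the tricarboxylic acid cycle 8 were on the higher side (median 0.03), as was 1 of 2 genes for cytochrome c and cytochrome c1. Of 14 genes for mitochondrial DNA expression and regulators 2 were (median -0.36). Esrrg, an estrogen-related receptor, stood at 112, 175 and 223 CPM in CON and 45.6, 33.7 and 75.0 CPM in SAP, with a log2 fold change of -1.74 ± 0.25 (SE; edgeR adjusted p = 0.545), and Tfam, which packages mitochondrial DNA and helps to start its transcription, at 35.8, 27.2 and 29.4 CPM in CON and 22.2, 12.9 and 25.3 CPM in SAP (log2 fold change -0.70 ± 0.36, SE; edgeR adjusted p = 0.661). Of 94 ribosomal protein genes tested 86 were on the higher side (median 0.33, -0.34 to 1.67).

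Glycolysis stood beside the members as a contrast. Its 18 genes summed to 714, 695 and 997 CPM in CON and 1390.1, 1823 and 1339 CPM in SAP, without overlap, and 13 of 17 tested were on the higher side with a median log2 fold change of 0.58 (0.36 to 0.81). Ldha, which turns pyruvate into lactate, stood at 78.8, 41.0 and 94.8 CPM in CON and 244, 259 and 135 CPM in SAP (log2 fold change 1.63 ± 0.47, SE; edgeR adjusted p = 0.545). edgeR called 0 of the 17. The 12 enterocyte markers summed to 1455, 824 and 2989 CPM in CON and 3411, 4430.4 and 2875 CPM in SAP, and their part in these values was not tested.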

How the data were processed

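Single-nucleus libraries (DNBelab C series, DNBSEQ-T7) were made from the ileum of 3 CON and 3 SAP rats, 1 library per rat. Per the study's methods, reads were processed with dnbc4tools, and the authors deposited raw UMI counts of each gene in each barcode, with no normalization. The submitters' processing notes name mRatBN7.2 and Seurat 4.3.0. The limits on nuclei follow the study's methods. Cell classes were rebuilt, since none are in the tables used here: log-normalized counts, 2000 variable genes, 30 principal components corrected for library by a re-implemented Harmony, and Leiden clustering (leidenalg 0.10.2, 20 neighbours, resolution 0.8). A cluster was named from its markers when their mean log2 ratio was at least 0.5 and led the next class by 0.8, with several of them detected. Stem and TA markers counted as 1 class where they led together, as did endothelial and lymphatic markers. Cluster 19 scored highest for interstitial cells of Cajal (2.62) but was left unnamed because its leading genes are of other cell types. Unnamed clusters were placed as epithelial or not by the named cluster closest in expression. Values per class may differ from the study's because the classes were rebuilt. Scrublet's own threshold marked 0% of nuclei and so did not work; nuclei marked by score were kept, and removing the top 5% was an alternative.

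UMI counts were summed per library and class and tested with edgeR 4.0.16 under R 4.3.3 (filterByExpr, TMM, robust quasi-likelihood fit, Benjamini-Hochberg over all genes tested), with DESeq2 1.42.0 as an alternative. The edgeR fit was also run on simulated counts. These held no shift shared by the genes of a library, so that run does not vouch for the fits in these data. CPM used the UMI total of the nuclei concerned. The members and lists were chosen with earlier results of these data known. Named members are the 3 of each complex with the highest CPM, the paralogues, the 3 with the smallest p in each of the 2 main fits, the 2 highest and 2 lowest fold changes in the epithelial fit, and members called in any fit; Cox5b, Ndufs1, Cox7b and the other members that did not overlap between the groups were named after their values were seen. The batch label is the same for all libraries. Libraries of a group differed by more than sampling noise (chi-square per degree of freedom 47.1 to 343). Same-numbered libraries deviated together from their group means (correlations of 0.61, 0.22 and 0.44, from the data and not from the labels), so a fit with the replicate number as a block was compared; it changed no member's call. The depth of 5549260 to 28771508 UMIs per library limits members with few UMIs. Promoters and overlapping genes are from RefSeq on GRCr8, another build than the counts, and were used only for sequences, names and neighbours. Some items are not reported here.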

Additional observations from a re-analysis of the deposited data

How the results depend on the processing

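The call of 0 members in all nuclei and in epithelial nuclei was the same under all 14 alternatives of each, and the number called over the classes was 0 to 1 with each library left out, the 1 without SAP replicate 3 being Atp5mc1 in fat-like nuclei. Of 168 values of the 6 named members with a fold change, 161 kept their direction. Medians did not hold: the member median in all nuclei ran from -0.23 to 0.68 with each library left out in turn and in epithelial nuclei from -0.33 to 0.68, both upper values without CON replicate 1. Alternatives chosen after seeing the data gave -0.41 and -0.59 without CON replicate 2 and SAP replicate 1, and 0.41 in epithelial nuclei without CON replicate 1 and SAP replicate 1. With 1 or 2 libraries left out, Ndufa1 ran from -1.18 to 0.69 (all) and -1.41 to 0.68 (epithelial), positive without CON replicate 1 and, at 0.33 and 0.34, without both replicates 1. Cox7a2l ran from -0.012 to 0.88 and from -0.16 to 0.86 and Atp5mc1 in epithelial nuclei from -0.0018 to 1.08, each negative without CON replicate 2 and SAP replicate 1. The summed level per 1000 ribosomal protein UMIs gave log2 ratios of -0.52 (all) and -0.45 (epithelial), against 0.13 and 0.11 in CPM, which ran from -0.03 to 0.44 and -0.07 to 0.45 with each library left out. The causes were not tested. With the replicate block the medians were 0.14 and 0.11 and 0 members were called. With at most 1% mitochondrial UMIs the medians were -0.20 and -0.30, a limit that left 384 nuclei, 318 of them epithelial, in SAP replicate 1. Over the classes, edgeR called 32 gene values, 124 with the block and 66 with library totals alone, and DESeq2 687; over all and epithelial nuclei edgeR called 0 and 0 genes and DESeq2 196 and 286. The ratio of SMC-like to all nuclei was 1.596 to 1.603 under its 3 alternatives.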
